A study of Mus musculus with 12 samples.

Results

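Aminoacyl-tRNA synthetases load each amino acid onto its transfer RNA. The 36 synthetase genes described here were taken by symbol from the gene column of the deposited table of 23235 genes, and all 36 were found. Of these, 20 encode cytosolic enzymes (Aars, Cars, Dars, Eprs, Farsa, Farsb, Gars, Hars, Iars, Kars, Lars, Mars, Nars, Qars, Rars, Sars, Tars, Vars, Wars and Yars) and 16 encode mitochondrial enzymes, whose symbols end in 2 (Aars2, Cars2, Ears2, Fars2, Hars2, Iars2, Lars2, Mars2, Nars2, Pars2, Rars2, Sars2, Tars2, Vars2, Wars2 and Yars2). Symbols decided the split, although Gars and Kars are known to supply both compartments. The libraries hold RNA bound to polysomes from oocytes of C57BL/6 mice at postnatal day 21, either wild type (WT) or Cnot6l-/- (KO). GV oocytes, which still have their germinal vesicle, were taken 48 h after PMSG, a gonadotropin that stimulates follicle growth, MI oocytes after 8 h in vitro and MII oocytes after 16 h in vitro. Each of these 6 groups has 2 libraries, prepared by Tn5 tagmentation of 500 pg of cDNA that had been amplified. Which stretch of Cnot6l was deleted, and whether a library is a pool of oocytes from several animals, is not given in the sources used here.

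In the cytosol, synthetases hand charged tRNA to the elongation factor that brings it to the ribosome, and several of them are bound together with scaffold proteins in the multisynthetase complex. Mitochondria translate the few messages of their own genome with their own tRNAs, charged mostly by separate enzymes that are encoded in the nucleus and imported. A full-grown oocyte makes hardly any new RNA, so its transcripts are stored and then recruited to polysomes, released from them or degraded as it matures. Cnot6l encodes a catalytic subunit of the CCR4-NOT complex, which shortens the poly(A) tails of mRNA.

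Expression is given as FPKM, a fragment count per length of transcript and size of library, so that levels of different genes can be compared. Changes were tested with limma on log2(FPKM + 1) in the 11667 genes whose mean over the 12 libraries was at least 1, and a gene with a Benjamini-Hochberg adjusted p below 0.05 is called higher or lower. Among the synthetases 33 passed this filter, 19 cytosolic and 14 mitochondrial, while Yars, Hars2 and Mars2 did not. FPKM totals of the libraries ran from 884142 in WT MII to 1663870 in KO MI, and genes as a whole shifted between some groups. The median log2 change of the genes tested was -0.056 (GV), 1.03 (MI) and 0.81 (MII) for KO against WT. From stage to stage it was -0.87 (GV to MI) and -0.27 (MI to MII) in WT, and 0.26 and -0.59 in KO. Calls of synthetases are therefore also given after dividing every library by a median ratio (median scaling). The median changes left after this scaling were 0.025 (GV), 0.21 (MI) and 0.41 (MII) for KO against WT. They were -0.32 (GV to MI) and -0.13 (MI to MII) in WT, and -0.076 and -0.076 in KO. Cnot6l itself was at 38.7 and 16.1 FPKM (GV), 68.5 and 47.9 (MI), and 65.2 and 49.4 (MII) in WT libraries. KO libraries held 6.28 and 21.6 (GV), 23.5 and 16.5 (MI), and 16.4 and 16.0 (MII), and a lower level was called at MII (limma adjusted p = 0.0425) and, with median scaling, also at MI (0.0427). Its libraries overlapped at GV, where it does not tell the genotypes apart. Depth in reads is unknown, and a listed 0 may be a transcript that was missed. How replicates were obtained is not in the labels, so the p-values measure a spread between libraries that may be technical. A lower level may come from less of that transcript in the oocyte or from less of it bound to polysomes. These cannot be told apart here, since total RNA is not analysed. FPKM is relative to the size of a library, so neither RNA per oocyte nor the number of oocytes can be read from it.

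The gene with the highest mean over the 12 libraries was mitochondrial. Fars2, the mitochondrial phenylalanine enzyme (mm9 chr13:36209280-36629462, plus strand), averaged 325 FPKM. The cytosolic genes with the highest means were Farsb, the beta subunit of phenylalanine-tRNA synthetase (chr1:78421411-78485421, minus strand), at 218, Qars for glutamine (chr9:108411810-108418272, plus strand) at 205, Iars for isoleucine (chr13:49777499-49829636, plus strand) at 131, Rars for arginine (chr11:35621883-35648030, minus strand) at 124 and Wars for tryptophan (chr12:110098240-110131421, minus strand) at 105. The other cytosolic genes averaged 76.8 (Nars) or less, and Vars (valine) and Yars (tyrosine) averaged 1.92 and 0.803. After Fars2, the mitochondrial genes dropped to 39.5 for Lars2 (leucine), 36.8 for Rars2 (arginine), 13.7 for Sars2 (serine) and 9.77 for Tars2 (threonine). The remaining 11 mitochondrial genes averaged 8.98 (Yars2) or less, down to Hars2, which was listed at 0 in 11 of 12 libraries. Replicates differed by a median of 0.248 (WT GV) to 0.476 (KO GV) on the log2 scale over the tested synthetases, and Kars for lysine varied widely within groups. Its values were 73.5 and 55.3 (WT GV), 9.81 and 49.9 (WT MI), 41.6 and 56.4 (WT MII), 13.4 and 62.5 (KO GV), 49.7 and 27.2 (KO MI), and 54.6 and 10.01 (KO MII). Among the groups compared, only WT MI and WT GV did not overlap, and Kars was called in no comparison.

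**Figure D1:**
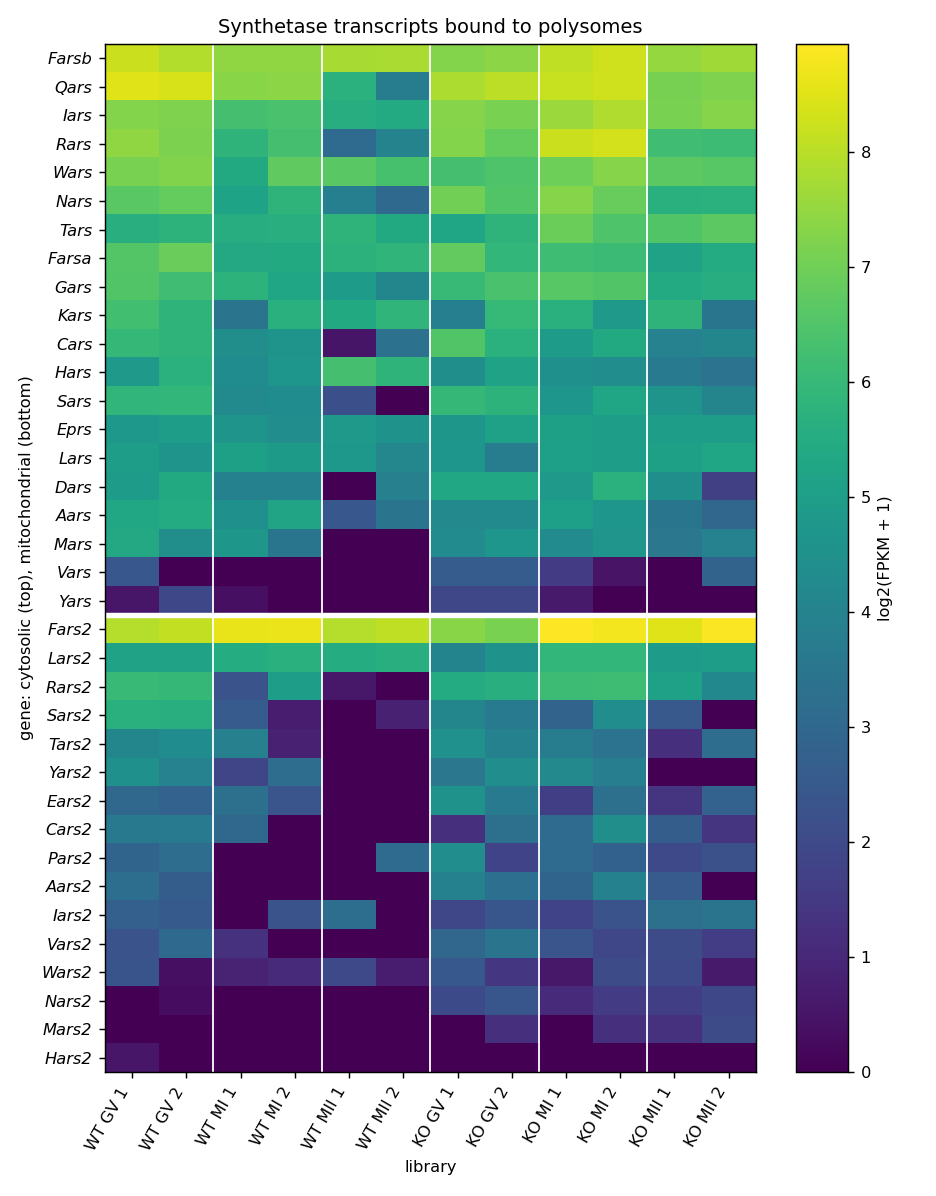
Level of the 36 synthetase genes (rows, cytosolic above mitochondrial) in the 12 libraries (columns), coloured by log2(FPKM + 1). Fars2 is high in every library, and most of the other mitochondrial genes are near 0 in both WT MII libraries.

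Summed over the cytosolic genes, synthetase FPKM was 1850 and 1757 (WT GV), 877 and 1017 (WT MI), and 753 and 676 (WT MII). The KO sums were 1434 and 1390 (GV), 1885 and 1980 (MI), and 1061 and 1067 (MII). In WT the GV libraries were thus the highest and the MII libraries the lowest, whereas in KO the MI libraries were the highest. As a share of all FPKM in the library, which no scaling of a library alters, the cytosolic sum was 0.148% and 0.137% (WT GV), 0.0843% and 0.0957% (WT MI), and 0.0846% and 0.0765% (WT MII). The share was 0.134% and 0.130% in KO GV, below both WT GV libraries. KO MI, at 0.115% and 0.119%, lay below the WT GV and above the WT MI libraries. KO MII, at 0.0876% and 0.0879%, lay within the range of WT MI and above WT MII.

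The mitochondrial sum stood at 0.259 and 0.284 of the cytosolic sum (WT GV), 0.558 and 0.499 (WT MI), and 0.400 and 0.487 (WT MII). In KO the same ratio was 0.239 and 0.222 (GV), 0.363 and 0.339 (MI), and 0.434 and 0.518 (MII). The KO MI libraries lay below the WT MI libraries without overlap, while the MII libraries of the genotypes overlapped. Fars2 alone made up 44.8% to 84.3% of the mitochondrial sum. Without Fars2, an alternative chosen after its level had been seen, the ratio was lower at MI than at GV in both genotypes, with 0.126 and 0.126 (WT GV), 0.101 and 0.0969 (WT MI), and 0.0750 and 0.0843 (WT MII), and with 0.127 and 0.122, 0.104 and 0.118, and 0.0964 and 0.0811 in KO. The rise of the ratio from GV to MI thus rests on a single gene. None of these ratios was tested.

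**Figure D2:**
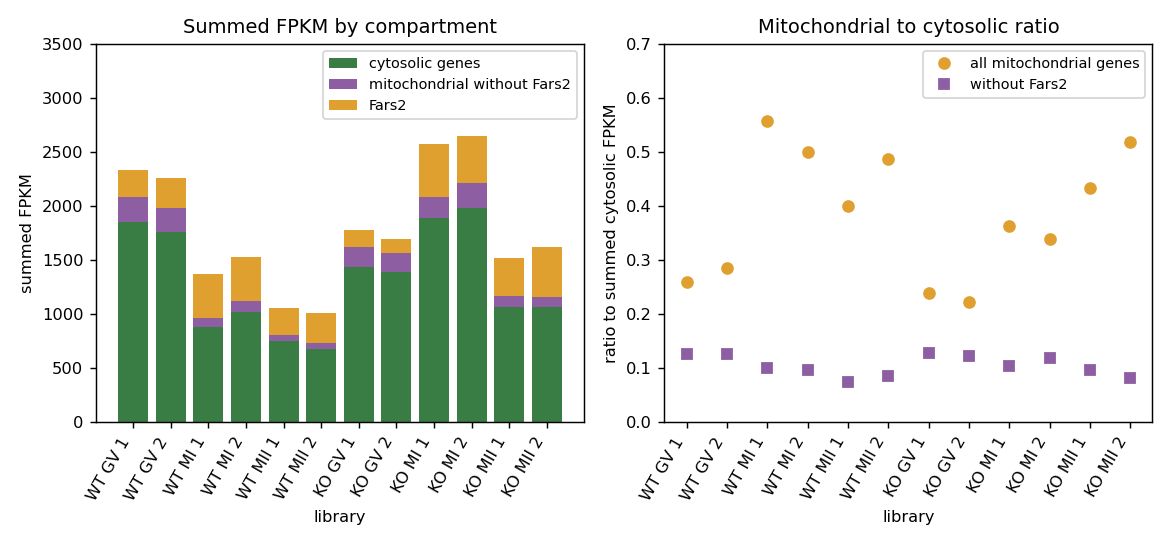
Left, summed FPKM of cytosolic genes, mitochondrial genes without Fars2, and Fars2, stacked by library; right, the ratio of the mitochondrial to the cytosolic sum in each library, with Fars2 (circles) and without it (squares). With Fars2 the ratio runs from 0.222 to 0.558, and without it from 0.0750 to 0.127.

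Between GV and MI in WT oocytes, 10 synthetase genes were called lower and 1 higher, in a comparison where 21.7% of all genes tested were called lower and 3.06% higher. Lower were 6 cytosolic genes, Farsa, Farsb, Iars, Nars, Rars and Wars, and 4 mitochondrial genes, Aars2, Rars2, Sars2 and Vars2. Both MI libraries lay below both GV libraries for 25 of the 33 genes and above them for 2, against 55.2% and 9.38% of all genes. The median change over the 33 was -1.22, against -0.87 over all genes. By compartment it was -1.07 for cytosolic and -1.78 for mitochondrial genes, an order that turned from MI to MII (-0.82 and -0.64). However, the mitochondrial Aars2, Nars2 and Pars2 and the cytosolic Vars were already at 0 in both WT MI libraries. They could not fall further, so these medians cannot show whether the compartments differ in timing. With median scaling only Sars2 was called lower, and 2 genes, Fars2 and Lars2, were called higher (7.62% and 6.99% of all genes). The count of 10 fell without either WT GV library or WT MI replicate 1, and it rose without either WT MII library. The count over all genes moved the same way in each of these fits. Rars, with 173 and 145 FPKM at GV and 55.4 and 78.5 at MI, was lost without either WT GV library or WT MI replicate 1 (0.0621 to 0.111).

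Sars2 went from 49.8 and 48.8 FPKM at WT GV to 4.95 and 0.61 at WT MI. All of its MI values lay far below GV, and the log2 change was -4.02 ± 0.92 (SE, limma adjusted p = 0.0107). With an MI value near 0, the size of this change depends on the pseudocount, the 1 added to FPKM. It ran from -4.97 to -3.08 over the 18 alternatives. Rars2 fell from 64.0 and 61.0 to 3.83 and 30.6, a change of -2.36 ± 0.73 (adjusted p = 0.0385) whose MI replicates were themselves far apart. Farsa, the alpha subunit of cytosolic phenylalanine-tRNA synthetase, went from 93.1 and 117 FPKM to 40.8 and 41.9, a log2 change of -1.31 ± 0.32 (adjusted p = 0.0139). Its partner Farsb changed by -0.60 ± 0.16 (adjusted p = 0.0233), from 297 and 239 FPKM to 176 and 175. Nars, for asparagine, dropped from 100.5 and 114 to 35.4 and 55.1 (-1.25 ± 0.35, adjusted p = 0.0272). Without any of WT GV replicates 1 and 2 or WT MI replicate 1, both Nars (0.0916 to 0.146) and Rars2 (0.139 to 0.191) were not called; Rars2 was also lost without any KO GV or KO MI library (0.0619 to 0.0637). Farsa was lost without WT GV replicate 2 or WT MI replicate 1 (0.0537 to 0.099), Sars2 without either WT GV library or WT MI replicate 2 (0.0635 to 0.0716), and Farsb without WT GV replicate 1 or either WT MI library (0.07 to 0.156).

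Fars2 went the other way. From 247 and 278 FPKM at WT GV it reached 401 and 409 at WT MI, with no overlap, a log2 change of 0.63 ± 0.16 (limma adjusted p = 0.0199). The call was lost without any single WT GV or WT MI library (0.0551 to 0.119), and it was stronger with median scaling (1.30, adjusted p = 0.000432, within a range of 0.000432 to 0.119 over the 18 alternatives). Qars fell short of the threshold although its libraries did not overlap: 359.9 and 335 FPKM at GV against 163 and 167 at MI (-1.07 ± 0.45, adjusted p = 0.11). The WT MII values of Qars were far apart (50.9 and 12.9), and without either of these libraries it was called lower (0.000623 and 0.000507, in a leave-one-out fit).

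From MI to MII in WT oocytes 12 synthetase genes were called lower and 1 higher (16.4% and 5.68% of all genes). Unlike the calls between GV and MI, this split hardly depended on scaling: with median scaling 11 were lower and 2 higher (14.9% and 8.97% of all genes), and all 11 were among the 12. Lower were the cytosolic genes Aars, Cars, Iars, Mars, Nars, Qars, Rars and Sars and the mitochondrial genes Ears2, Fars2, Rars2 and Yars2. The libraries did not overlap for 16 lower and 3 higher genes (30.8% and 17.5% of all genes). The median change was -0.65 for the 33 genes against -0.27 for all genes. Mars (methionine) was listed at 0 in both WT MII libraries, after 25.8 and 10.01 FPKM at MI, as were Ears2 (glutamate) and Yars2 (tyrosine). Fars2 was lost without either WT MI library or WT MII replicate 1 (0.0612 to 0.07), Aars without the first WT MII or the second WT MI library (0.0563 to 0.08), Ears2 without WT MI replicate 1 or either WT MII library (0.0555 to 0.108) and Yars2 without WT MI replicate 2 (0.0802).

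Qars dropped from 163 and 167 FPKM to 50.9 and 12.9, a log2 change of -2.63 ± 0.45 (limma adjusted p = 0.00216). Rars had 55.4 and 78.5 at MI and 7.67 and 14.8 at MII (-2.51 ± 0.32, adjusted p = 0.000317). Sars, for serine, went from 18.0 and 19.4 to 3.56 and 0 (-3.20 ± 0.61, adjusted p = 0.00402). In these 3 genes every MII library lay below both MI libraries, and the calls stood whichever of the 12 libraries was left out. Nars reached 13.3 and 7.34 FPKM and was lower by the same measures (-2.05 ± 0.35, adjusted p = 0.0022). Cars, for cysteine, measured 20.2 and 23.7 at MI but 0.41 and 9.07 at MII (-2.60 ± 0.73, adjusted p = 0.0283), a call lost without either WT MI library or WT MII replicate 1 (0.0772 to 0.109). Rars2 ended at 0.50 and 0 FPKM (-3.33 ± 0.73, adjusted p = 0.00808). Over the 18 alternatives, which include a smaller pseudocount, the change ran from -5.49 to -1.98 for Rars2 and from -4.96 to -2.11 for Sars. In a fit of the 4 WT libraries of these stages alone, with little information on spread, no synthetase was called; at an unadjusted p below 0.05, 9 were lower and 3 higher, and 0 of all genes passed the adjusted threshold.

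Hars, the histidine enzyme, was the synthetase called higher from MI to MII in WT. It had 19.6 and 25.1 FPKM at MI and 77.0 and 54.9 at MII, a log2 change of 1.51 ± 0.41 (limma adjusted p = 0.0245). Both MII values were above every other Hars value of the data set. Leaving out WT MI replicate 1 (0.103) or WT MII replicate 1 (0.0949) ended this call. Exons of Hars share 195 bp with Hars2 on the opposite strand, and the labels do not say that strand was kept, so reads from that stretch cannot be told apart. Hars2 was listed at 0 in all but 1 library.

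Over the whole of maturation, the WT MII mean of Rars was 7.08% of its GV mean, that of Qars 9.18%, that of Nars 9.66% and that of Sars 3.05%. Rars2 kept 0.400% and Sars2 0.791%. For other genes the MII mean as deposited was close to the GV mean or above it: Tars (threonine) kept 93.9%, Eprs, the joint enzyme for glutamate and proline, 87.5%, Farsb 81.9%, and Fars2 98.5%, while Lars2 stood at 135% and Hars at 168%. These shares were not tested, and they depend on scaling. With FPKM rescaled to equal totals, these 6 genes stood at 134%, 125%, 117%, 141%, 192% and 240%. Rars, Qars, Nars and Sars then kept 10.1%, 13.1%, 13.8% and 4.35%, Rars2 0.569% and Sars2 1.13%. Synthetase genes thus spread over more than an order of magnitude within the same libraries. The ratio of Qars to Eprs in a library, which no scaling alters, was 13.8 and 10.98 (WT GV), 6.90 and 8.45 (WT MI), and 1.88 and 0.575 (WT MII).

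**Figure D3:**
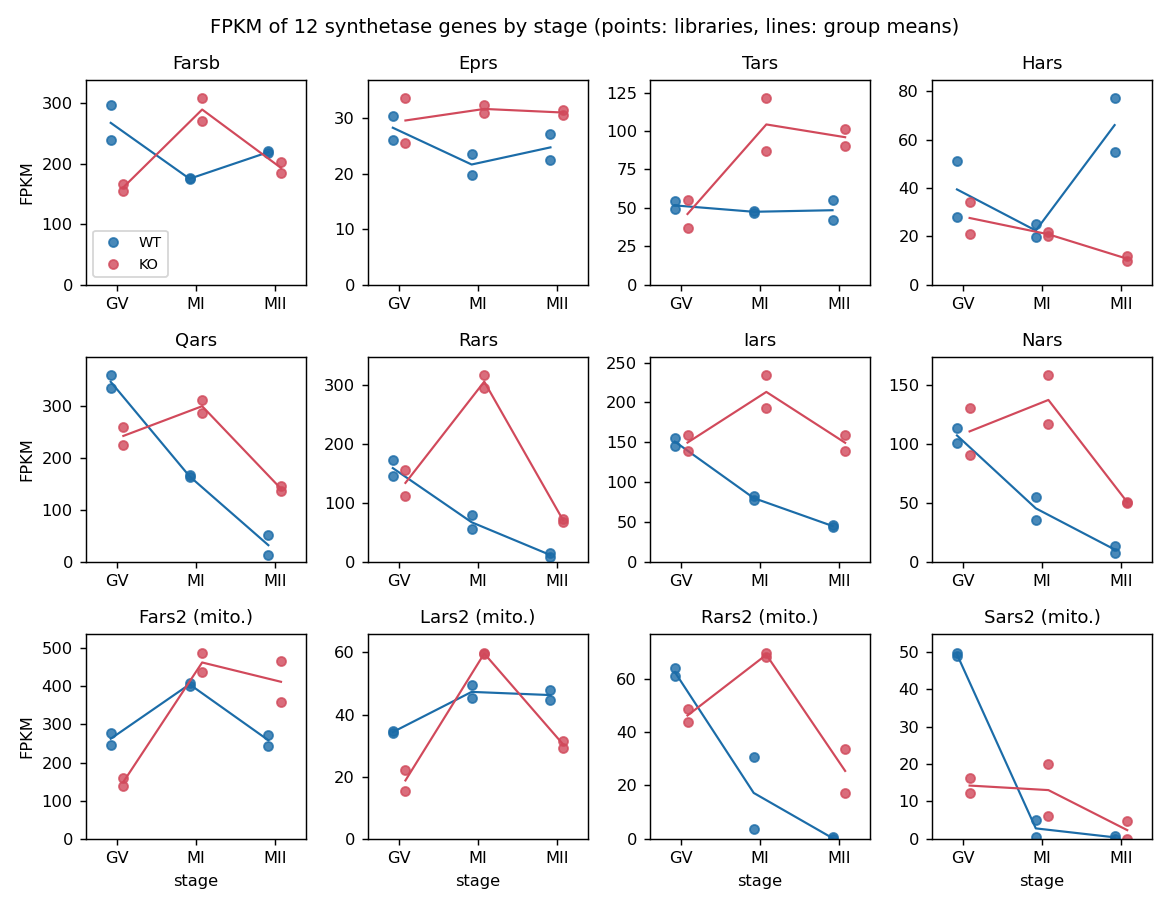
FPKM of 12 synthetase genes by stage, with 1 point per library, lines joining group means and WT in blue, KO in red; each panel has its own axis from 0. In WT, Qars, Rars, Iars and Nars step down at each stage, Hars is highest at MII and Rars2 and Sars2 end near 0, whereas the 4 KO curves in the middle row peak at MI.

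Markers of other cells moved with stage as well. The 10 cumulus and granulosa markers summed to 259 and 299 FPKM (WT GV), 107 and 127 (WT MI), and 64.7 and 50.5 (WT MII), and to 135 and 183, 148 and 131, and 76.8 and 121 in KO. Of these 10, Foxl2 was at 0 in every library, and Inha, with 201 and 239 FPKM in WT GV and 0 in WT MII, carried most of the GV sum. Other markers of the list rose: Ptx3 was at 0 in both WT GV libraries and at 32.1 and 40.2 FPKM in WT MI, and Cyp19a1 had 8.87 and 16.97 in KO GV and 101 and 92.0 in KO MI. Of the 8 markers tested, 2 were called higher and 2 lower for WT MI vs GV, and 0 higher and 3 lower for WT MII vs MI. Their part in the synthetase changes was not tested. Of 8 markers of theca, stroma, endothelium and blood, 5 were at 0 in every library. The endothelial marker Pecam1, however, was above 0 in all 12 libraries, at 13.1 to 70.2 FPKM. Hba-a1 reached 6.34 FPKM in WT MII replicate 1, and Star 2.24 in KO GV replicate 2. All 10 oocyte markers were present, with sums of 23947 FPKM (WT MII) to 68746 FPKM (KO MI).

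In KO oocytes the change from GV to MI, as deposited, ran in the opposite direction for some of these genes. The test called 5 synthetases higher and 0 lower (8.89% and 1.35% of all genes): Farsb, Rars, Tars, Fars2 and Lars2. Without overlap, 12 of the 33 were higher and 7 lower, against 37.3% and 18.7% of all genes. Median scaling left Fars2 and Lars2 as called higher, where 4.19% of all genes were. Fars2 had 159.9 and 138 FPKM in KO GV and 489 and 436 in KO MI, a log2 change of 1.63 ± 0.16 (limma adjusted p = 0.000101), and it was called under all 18 alternatives (adjusted p 0.000113 to 0.00951). Lars2 went from 15.3 and 22.2 to 59.96 and 59.3 (1.64 ± 0.29, adjusted p = 0.00474) and was not called when FPKM were rescaled to equal totals (0.0718, the top of its range from 0.00328).

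Among cytosolic genes, Rars rose from 156 and 112 FPKM in KO GV to 295 and 316 in KO MI (1.2 ± 0.32, limma adjusted p = 0.0381), the highest Rars values of all libraries. Tars measured 36.9 and 55.0 and then 121 and 87.3 (1.17 ± 0.29, adjusted p = 0.0276). Farsb had 155 and 167, then 271 and 308 (0.84 ± 0.16, adjusted p = 0.00744). None of the 3 pairs overlapped. Rars was not called without any single WT GV, KO GV, KO MI or KO MII library (0.0607 to 0.224), Tars without KO GV replicate 1 or either KO MI library (0.0669 to 0.234) and Farsb without KO MI replicate 2 (0.0899). The count of 5 fell without KO GV replicate 1 or either KO MI library, and the count over all genes fell in these fits as well.

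From MI to MII in KO, 3 synthetases were called lower and 0 higher (7.18% and 0.163% of all genes). The libraries did not overlap for 22 lower and 3 higher genes (54.9% and 5.67% of all genes). Rars dropped to 73.1 and 68.0 FPKM (-2.10 ± 0.32, limma adjusted p = 0.00371) and Nars from 158 and 116 to 50.1 and 51.0 (-1.41 ± 0.35, adjusted p = 0.0401). Yars2 went from 17.5 and 13.1 to 0 in both libraries. With median scaling 2 were lower and 0 higher (0.677% and 0.84% of all genes): Rars (0.0492) and Yars2 (0.0244) were called and Nars was not (0.469). Without KO MI replicate 2 Rars was just lost (0.0514), Yars2 was lost without KO MI replicate 1 (0.0507), and Nars was lost without any WT GV, KO GV, KO MI or KO MII library (0.0512 to 0.267). Leaving out a KO MI library reduced the count, and leaving out a WT MII library raised it. The count over all genes moved the same way. In KO, Rars kept 52.8% of its GV mean at MII, Qars 58.0%, Nars 45.7%, Sars 34.5% and Rars2 55.0%. With equal totals these shares were 46.5%, 51.2%, 40.3%, 30.4% and 48.6%, and they were not tested.

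At GV a single synthetase, Fars2, was called between KO and WT (0 genes higher and 1 lower, against 0.163% and 1.4% of all genes). The libraries did not overlap for 4 higher and 10 lower genes (17.9% and 24.2% of all genes). Fars2 was lower in KO: 159.9 and 138 FPKM against 247 and 278 in WT (-0.81 ± 0.16, limma adjusted p = 0.0401). The ranges did not overlap. The call was lost with median scaling (0.0777) and without any single WT GV, WT MI, KO GV or KO MI library (0.0651 to 0.285, within a range of 0.0298 to 0.285 over all alternatives). Leaving out either WT MII library added Farsb (0.0493 and 0.0495), at 155 and 167 FPKM in KO GV against 297 and 239 in WT GV. With no filter on low values, 1 gene was called higher.

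At MI, 8 synthetases were called higher in KO and 0 lower, where 27.9% of all genes were called higher and 0.463% lower. Cytosolic genes were Farsb, Gars (glycine), Iars, Nars, Rars and Tars, and mitochondrial genes Aars2 (alanine) and Rars2. The median difference over the 33 genes was 0.995, and that of all genes 1.03. Both KO libraries lay above both WT libraries for 24 of the 33 genes and below them for 0, as they did for 69.5% and 3.13% of all genes. With median scaling no synthetase was called higher, and Fars2 was called lower (-0.78, adjusted p = 0.024, against 0.19 and 0.392 as deposited). Of all genes 2.16% were then called higher and 2.46% lower. The count of 8 as deposited fell without either KO MI library, with Farsb and Aars2 among those lost without replicate 2. The count over all genes fell in both fits as well.

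Rars stood out at MI with 295 and 316 FPKM in KO against 55.4 and 78.5 in WT, a log2 difference of 2.19 ± 0.32 (limma adjusted p = 0.00124). Relative to the median of all genes this was 1.17, and only median scaling ended the call (0.0586, the top of a range from 0.000223). Rars2 had 68.2 and 69.8 FPKM against 3.83 and 30.6 (2.50 ± 0.73, adjusted p = 0.0289). Nars, with 158 and 116 against 35.4 and 55.1, differed by 1.60 ± 0.35 (adjusted p = 0.00948). Iars was 193 and 234 in KO and 77.6 and 82.3 in WT (1.40 ± 0.20, adjusted p = 0.00102). Tars was 121 and 87.3 against 46.9 and 47.95 (1.1 ± 0.29, adjusted p = 0.0203). In all 5 genes both KO libraries lay above both WT libraries. The Rars2 call ended without WT MI replicate 1 or either KO MI library (0.119 to 0.131), Nars without WT MI or KO MI replicate 1 (0.0569 and 0.0824) and Tars without any WT MI or KO MI library (0.0522 to 0.147).

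At MII, 11 synthetases were called higher in KO and 1 lower (25.4% and 3.2% of all genes). The libraries did not overlap for 19 higher and 4 lower genes (48.9% and 10.6% of all genes). The median difference was 1.12, against 0.81 for all genes. Higher were Gars, Iars, Mars, Nars, Qars, Rars, Sars and Tars among cytosolic genes and Fars2, Nars2 and Rars2 among mitochondrial ones, and Hars was lower. Median scaling gave 8 higher and 4 lower (16.1% and 8.31% of all genes). The 8 were all among the 11, and the 4 lower genes were Farsa, Farsb, Hars and Lars2. Hars, Iars, Mars, Rars and Rars2 were called under every one of the 18 alternatives. Fars2 was lost without KO MII replicate 2 (0.116), Tars without WT MII replicate 2 or either KO MII library (0.0843 to 0.137) and Nars2 without any MII library (0.0863 to 0.132).

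Among genes not listed at 0 in a whole group, Rars2 had the largest fitted difference, with 33.7 and 17.2 FPKM in KO MII and 0.50 and 0 in WT MII (4.36 ± 0.73, limma adjusted p = 0.00142). Sars measured 23.7 and 15.6 against 3.56 and 0 (3.24 ± 0.61, adjusted p = 0.00301). Rars, at 73.1 and 68.0 against 7.67 and 14.8, differed by 2.61 ± 0.32 (adjusted p = 0.000204). In WT MII all 3 were at 14.8 FPKM or less. Values near 0 make the size of the difference depend on the pseudocount, the 1 added to FPKM. Over the 18 alternatives it ran from 3.89 to 6.62 for Rars2 and from 2.15 to 5.00 for Sars. Qars had 137 and 145 FPKM in KO against 50.9 and 12.9 in WT (2.4 ± 0.45, adjusted p = 0.00289). Nars had 50.1 and 51.0 against 13.3 and 7.34 (2.24 ± 0.35, adjusted p = 0.00102). Mars was at 10.6 and 14.6 FPKM in KO and listed at 0 in both WT libraries. Sars, Qars and Nars lost their calls only in the fit of the 4 MII libraries alone (0.142, 0.148 and 0.0557, each the top of its range over all alternatives, from 6.37e-05, 1.58e-06 and 0.000477).

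Hars was the exception at MII. KO libraries had 11.7 and 9.69 FPKM, the lowest Hars values of all 12 libraries, and WT libraries 77.0 and 54.9, the highest. The log2 difference was -2.50 ± 0.41 (limma adjusted p = 0.00131, with 0.00049 to 0.0353 over the alternatives). Farsb and Eprs were not called as deposited. Farsb had 184 and 202 FPKM in KO against 217 and 221 (-0.18 ± 0.16, adjusted p = 0.444), and with median scaling it was lower (-0.79, adjusted p = 0.00566, the bottom of a range up to 0.762). Eprs had 30.6 and 31.5 against 27.2 and 22.4 (0.32 ± 0.32, adjusted p = 0.505).

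**Figure D4:**
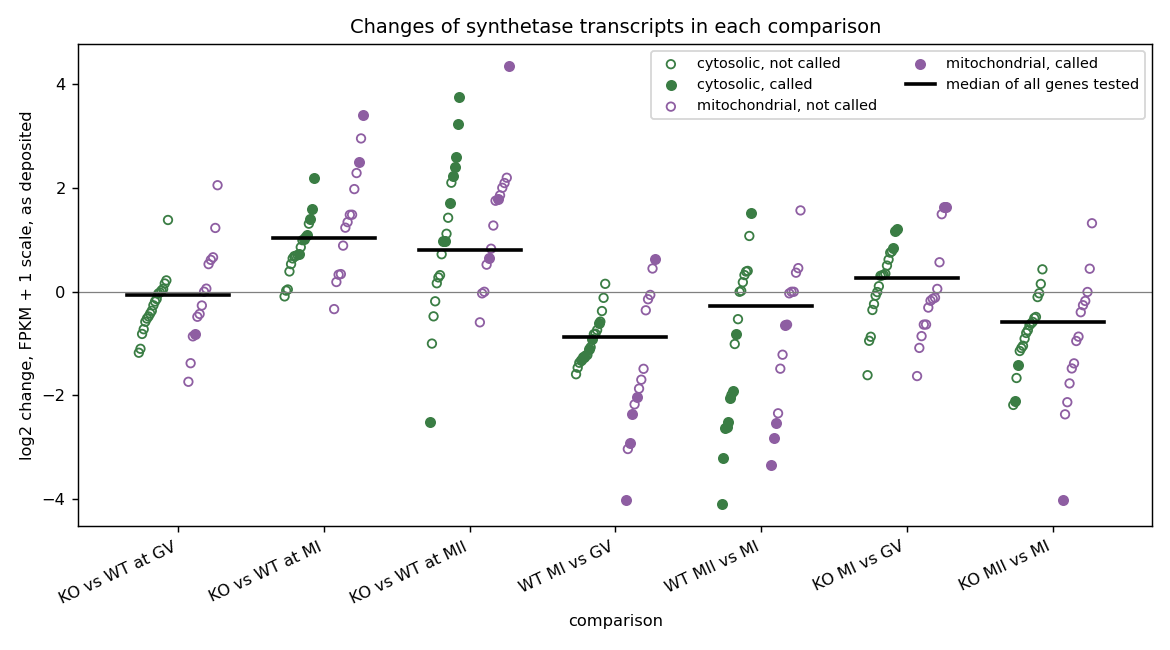
Log2 change of each tested synthetase gene (points, green cytosolic, purple mitochondrial, filled where called) in 7 comparisons, with the median of all genes tested as a black bar. For genes at 0 or near 0 in a group, among them Rars2 in WT MII, the plotted value depends on the pseudocount. At KO vs WT MII the called genes spread from Hars at -2.50 to Rars2 at 4.36, on both sides of the bar at 0.81.

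The stage changes themselves were compared between genotypes with an interaction term. From GV to MI the change was more positive in KO for 5 synthetases and more negative for 0 (14.4% and 0.266% of all genes): Farsb (1.44), Iars (1.41), Rars (2.46), Wars (1.87) and Fars2 (1.0). The median of all genes was itself 1.13, and relative to it the 5 values were 0.31, 0.28, 1.33, 0.74 and -0.13. As deposited, Farsb fell in WT and rose in KO, and so did Rars. With median scaling Farsb did not fall in WT (0.073). The rises in KO were then 0.46 for Farsb and 0.82 for Rars, neither called (limma adjusted p = 0.15 and 0.202). After median scaling none of the 5 was called, where 0.643% of all genes were called higher, and the sign for Fars2 turned (-0.059, adjusted p = 0.958, the top of a range from 0.0111). From MI to MII the change was more positive in KO for Mars, which was listed at 0 in WT MII, and more negative for Farsb (-0.90) and Hars (-2.42), against 2.81% and 3.71% of all genes. Only the Mars call held with median scaling (adjusted p = 0.0126, in a range of 0.00293 to 0.132), and it was lost without WT MI replicate 1 or any KO MI or KO MII library. The count of 5 from GV to MI rose without either WT MII library and fell without WT GV replicate 2 or either KO MI library. The count over all genes moved the same way in these fits. Iars was lost without KO MI replicate 2 (0.0554), Fars2 without WT GV replicate 2, KO GV replicate 2 or a KO MI library (0.0542 to 0.0816), and Wars without any WT GV, KO GV, KO MI or KO MII library (0.0563 to 0.139). Farsb and Hars were both lost from MI to MII without any WT MI, KO MI or KO MII library, Farsb also without a KO GV library and Hars without WT MII replicate 1 (0.0519 to 0.181 and 0.0546 to 0.132).

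For 14 amino acids the list holds an enzyme of each compartment, with Fars2 set against Farsa for phenylalanine. For 9 of these pairs the mitochondrial gene exceeded the cytosolic one in 0 of 12 libraries. Fars2 exceeded Farsa in 12 of 12 libraries, by a log2 ratio of 0.53 to 3.36. Against Farsb, the other subunit, Fars2 was at 0.827 to 2.34 times its FPKM and lower in 2 libraries, WT GV replicate 1 and KO GV replicate 2. Lars2 exceeded Lars in 9 libraries. Yars2 was above Yars in 8 libraries and Vars2 above Vars in 7, but Yars and Vars were close to 0. For arginine the ratio of Rars2 to Rars was between -3.98 and -1.09, and for asparagine that of Nars2 to Nars was between -6.67 and -3.06. At WT MII 11 of the 16 mitochondrial genes were listed at 0 in each library, against 1 or 2 in the GV libraries of both genotypes and 2 or 4 in KO MII. Of the cytosolic genes 4 were at 0 in each WT MII library and 2 and 1 in KO MII. Detection differed over the whole table as well: 39.2% and 39.0% of all genes were above 0 in WT MII. This share was 54.0% and 54.3% in WT GV, 52.8% and 52.5% in KO GV, and 52.1% and 51.4% in KO MII.

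Of the 8 synthetases in the multisynthetase complex, Dars, Eprs, Iars, Kars, Lars, Mars, Qars and Rars, 4 were called lower from MI to MII in WT (Iars, Mars, Qars and Rars), where 16.4% of all genes were. In KO against WT at MII, Iars, Mars, Qars and Rars were called higher, where 25.4% of all genes were. The calls were not particular to the complex. Of the 11 tested cytosolic genes outside it, 4 were lower and 1 higher in the first comparison, and 4 higher and 1 lower in the second. Both comparisons use the same WT MII libraries, so that low values there enter both. Dars, Eprs, Kars and Lars were not called in either comparison. The file's Dars model covers 9.9% of the annotated gene span, so its value rests on that stretch alone. Iars fell at each WT step, from 156 and 146 FPKM (GV) through 77.6 and 82.3 (MI) to 46.6 and 43.0 (MII), while KO MII libraries had 139 and 159. The first WT step was lost without WT GV replicate 1 (0.0571) and the second without WT MI replicate 2 (0.055). The ratio of Iars to Eprs in a library was 5.97 and 4.77 in WT GV and 1.72 and 1.92 in WT MII. In KO it was 6.22 and 4.15 (GV), 5.93 and 7.54 (MI), and 4.55 and 5.06 (MII). That of Rars to Eprs was 6.61 and 4.75 in WT GV and 0.283 and 0.662 in WT MII. In KO it was 6.07 and 3.32 (GV), 9.09 and 10.2 (MI), and 2.39 and 2.16 (MII). Both ratios were thus lower at MII than at GV in WT. In KO that of Rars was lower without overlap, while the Iars ratios at GV and MII overlapped. These ratios were not tested. Farsa and Farsb, whose products join in equal number, were also unequal: Farsa stood at 0.314 and 0.490 of Farsb in WT GV, 0.232 to 0.254 in the other WT libraries, and 0.185 to 0.711 in KO.

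Of the 3 scaffold genes of the complex, Aimp1 and Aimp2 were called lower from MI to MII in WT, and Eef1e1 was not. Aimp1 had 70.7 and 127 FPKM (WT GV), 32.0 and 37.5 (WT MI), and 0 and 2.58 (WT MII), against 48.03 and 33.8 in KO MII (4.45 in log2, limma adjusted p = 0.00026). Aimp2 had 12.2 and 18.1 in WT MII and 74.2 and 41.0 in KO MII (1.83, adjusted p = 0.00564), and Eef1e1 had 33.4 and 58.7 against 107 and 75.6 (1.0, adjusted p = 0.0385). Within a list of 16 partners of synthetases, which also covers tRNA editing and amidotransferase genes, 15 were found and 14 tested. Of the 14, 4 were lower and 0 higher from GV to MI in WT (1 and 0 with median scaling, where 7.62% of all genes were lower), and 6 were lower and 0 higher from MI to MII, steps at which 21.7% and 16.4% of all genes were lower as deposited. In KO at MII 8 were higher and 0 lower, against 25.4% of all genes higher (6 and 0 with median scaling, against 16.1%). Among the 8 were Eefsec, the elongation factor for selenocysteine, and Pstk, a kinase in the synthesis of selenocysteine on its tRNA. The list's median there was 1.41, against 0.81 for all genes.

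Elongation factors take charged tRNA from the synthetases or work beside those that do. From MI to MII in WT, 5 of 9 were lower, Eef1a1, Eef1d, Eef1g, Eef2 and the mitochondrial Gfm2, and 1 was higher, the mitochondrial Tsfm, against 16.4% and 5.68% of all genes (5 and 2 with median scaling, against 14.9% and 8.97%). Eef1a1, which carries charged tRNA in the cytosol, had 1013 and 1011 FPKM (WT GV), 417 and 299.9 (WT MI), and 75.4 and 76.8 (WT MII), with 209 and 212 in KO MII (1.46 in log2 for KO vs WT, limma adjusted p = 7.29e-05). Tsfm, the exchange factor of the mitochondrial carrier, had 187 and 173, then 229 and 223, then 371 and 342 in WT (0.65 from MI to MII, adjusted p = 0.0419). At MII in KO 5 of the 9 were higher and 0 lower, against 25.4% of all genes higher, and with median scaling 4 were higher and 2 lower (16.1% and 8.31% of all genes). At MI 4 were higher, against 27.9% of all genes, and none with median scaling, against 2.16%.

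Several cytosolic synthetase genes are known targets of Atf4, the transcription factor of the amino acid response, so its motif was looked for in their promoters. The motif searched was TGATGNAAN, on both strands, in a window of 300 bases that lies mostly upstream of the annotated start (RefSeq, GRCm38.p6). Windows were found for 27 of the 36 genes, and 5 of the 27, all cytosolic, held the motif (18.52%), against 4.5% of 27025 genes in the table. Stretches that hold it are shown, 1 for each of the 5 genes, with the motif in capitals:
Aars, chr8:111033840-111033869, minus strand: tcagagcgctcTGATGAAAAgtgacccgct
Gars, chr6:55037960-55037989, minus strand: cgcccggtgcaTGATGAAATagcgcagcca
Iars, chr13:49682126-49682155, minus strand: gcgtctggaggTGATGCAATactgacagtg
Tars, chr15:11399655-11399684, plus strand: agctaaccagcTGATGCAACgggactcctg
Yars, chr4:129189896-129189925, plus strand: cgagctcagcTGATGCAACccgacgggact

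The 5 genes with the motif did not move alike. Gars, Iars and Tars were among those called higher in KO at MI and MII, where 27.9% and 25.4% of all genes were. Aars was not called in KO vs WT at any stage, and Yars was below the filter. Relative to the median of all genes, the differences at MI were -0.0098 (Gars), 0.37 (Iars) and 0.073 (Tars). With median scaling, Gars and Tars were called at neither stage and Iars at MII only. Gars had 90.0 and 71.5 FPKM (WT GV), 54.2 and 37.9 (WT MI), and 29.7 and 16.3 (WT MII), and 65.2 and 81.1, 96.8 and 89.2, and 42.7 and 46.7 in KO. The Gars libraries of the genotypes did not overlap at MI (1.02 ± 0.33, limma adjusted p = 0.0444) or MII (0.99 ± 0.33, adjusted p = 0.0495), but both calls sat at the threshold: in the leave-one-out fits it was kept at MI only without a WT MII library, and at MII it was lost without any WT GV, KO GV, KO MI or KO MII library or WT MII replicate 2 (0.0532 to 0.191 and 0.0603 to 0.217 where lost). Rars, Nars and Qars, which differed more between genotypes at MII, gave no match: the Qars window lacked the motif, and no window was found for the other two.

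Atf4 itself had 177 and 219 FPKM (WT GV), 115 and 155 (WT MI), and 22.5 and 25.6 (WT MII). Its KO values were 261 and 243 (GV), 257 and 296 (MI), and 96.5 and 114 (MII). Both KO libraries were above both WT libraries at each stage. Atf4 was called higher at MI (1.04, limma adjusted p = 0.00747), where median scaling ended the call (0.903). It was also higher at MII (2.08, adjusted p = 6.94e-05), where the call held with median scaling (0.000706). Of 13 tested genes of the amino acid response, 5 were higher and 0 lower at MI (1 and 0 with median scaling), and 4 were higher (Atf4, Ddit3, Chac1 and Phgdh) and 1 lower (Slc3a2, a subunit of amino acid transporters) at MII (3 and 2 with median scaling). The shares of all genes called higher were 27.9% and 25.4%, and with median scaling 2.16% and 16.1%. Ddit3 overlaps the exons of Mars by 68 bp on the opposite strand. Asns, the asparagine synthetase gene and another known Atf4 target, had 15.6 FPKM or less in every library and was not called in any KO vs WT comparison.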

How the data were processed

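Polysome-bound RNA of 12 oocyte libraries was measured, 2 for each of 6 groups given by genotype and stage in the labels. The authors deposited FPKM values in a table of all libraries and in a table per library, which held identical values. The mouse build mm9 and the tools Cufflinks 2.2.1, TopHat2 2.0.11, Bowtie2 2.1.0 and CASAVA 1.8 are named per the submitters' processing notes. What each tool did, the annotation and any read filter was not given in the sources used here. FPKM were used as deposited.

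limma 3.58.1 in R 4.3.3 was fitted to log2(FPKM + 1) with 6 group means, an abundance trend and Benjamini-Hochberg adjustment over 11667 genes (residual df 6, prior df 4.27), 2-sided. The script was tested on simulated data. A value before ± is a log2 change and after it its SE. Where a group is listed at 0 throughout, the fitted change depends on the pseudocount. It is plotted, and printed once, for the Mars interaction. Where a group is near 0, the size of the change depends on the pseudocount as well. Loci are from the deposited table (mm9) and promoter windows from RefSeq (GRCm38.p6); 1 promoter sequence is not reported here.

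The synthetases and the other lists were chosen with earlier results of these data known, so no list was tested as a set. Named with full statistics are, per comparison, up to 5 called synthetases with the largest increase and 5 with the largest decrease, and those with the highest mean; others are examples chosen after their values were seen. Alternatives were a pseudocount of 0.1, no filter, equal totals (TPM), median scaling over 5734 genes, the replicate number as a block, each library left out and fits of the compared groups alone; they are 18 per comparison. Replicate numbers do not pair libraries in the labels.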

Additional observations from a re-analysis of the deposited data

Results flagged for a closer look

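Differences between genotypes in the change from one stage to the next, tested as an interaction in limma, are listed here as values. From GV to MI the change was more positive in KO for Farsb by 1.44 on the log2 scale (adjusted p = 0.00324), for Iars by 1.41 (adjusted p = 0.00954), for Rars by 2.46 (adjusted p = 0.00677), for Wars by 1.87 (adjusted p = 0.0364) and for Fars2 by 1.0 (adjusted p = 0.0189). The median over all genes tested was 1.13, and none of the 5 passed with median scaling. From MI to MII the difference was -0.90 for Farsb (adjusted p = 0.0448), -2.42 for Hars (adjusted p = 0.0353) and 3.36 for Mars (adjusted p = 0.0298), where the median of all genes was -0.25. The Mars value depends on the pseudocount, since Mars was listed at 0 in both WT MII libraries. Groups of 2 libraries were too small to look for single outlying libraries.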

How the results depend on the processing

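Depth in reads is unknown, and with 2 libraries per group the spread rests on 6 residual degrees of freedom shared by all groups; where a library was left out, the lone library of its group was assumed to vary like the others. Counts of synthetases called moved with scaling. With TPM they were 0 lower for KO vs WT at GV, 1 higher at MI and 3 lower at MII, 4 lower for WT MI vs GV, 2 higher for WT MII vs MI, 1 higher for KO MI vs GV, 0 higher for the interaction GV to MI, and 1 higher and 1 lower for that from MI to MII. With median scaling they were 0 lower at GV, 0 higher and 1 lower at MI, 4 lower at MII, 2 higher and 1 lower for WT MI vs GV, 2 higher for WT MII vs MI, 2 higher for KO MI vs GV, 0 higher for the interaction GV to MI, and 1 higher and 0 lower for that from MI to MII. Farsb turned sign with median scaling for KO vs WT at MI (-0.24) and WT MI vs GV (0.073), and Fars2 for the interaction GV to MI (-0.059). Without the filter 1 gene was higher in KO at GV, and with a pseudocount of 0.1, 2 were higher for the interaction MI to MII. In fits of the compared groups alone 0 were lower at GV, 6 higher at MII, 0 higher and 0 lower for WT MII vs MI, 6 lower for KO MII vs MI, 8 higher for the interaction GV to MI and 0 higher for that from MI to MII. The cause of these moves was not tested.

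With the replicate block the count was 0 lower for KO vs WT at GV and 1 lower for the interaction MI to MII, and no other count moved by over 1.5 times. Replicate numbers did not pair the libraries: over 15 pairs of groups the correlation of replicate differences was -0.0292 to 0.0547, and 0 were above 0.1.

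Leaving out each library in turn gave 0 to 2 lower for KO vs WT at GV, 3 to 11 higher at MI, 8 to 13 higher and 1 lower at MII, 0 or 1 higher and 1 to 15 lower for WT MI vs GV, 0 to 2 higher and 8 to 12 lower for WT MII vs MI, 2 to 5 higher for KO MI vs GV, 1 to 8 lower for KO MII vs MI, 2 to 9 higher for the interaction GV to MI, and 0 to 3 higher and 0 to 2 lower for that from MI to MII. Counts over all genes tested moved in these fits as well. The mean ratio of mitochondrial to cytosolic FPKM was 0.272, 0.529 and 0.444 in WT GV, MI and MII and 0.230, 0.351 and 0.476 in KO. From medians over genes in place of sums it was 0.134, 0.0436 and 0 in WT and 0.210, 0.175 and 0.0900 in KO, and without Fars2 0.126, 0.0988 and 0.0797 in WT and 0.125, 0.111 and 0.0887 in KO.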
